A study of Homo sapiens with 9 samples.

Results

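The transcripts described here encode the TREX complex and the mRNA export receptor that it serves. They were measured in 293T cells, a line of human embryonic kidney origin with the large T antigen of SV40, with and without an shRNA against DIS3. The members are 10 genes, found by symbol among 61853 listed genes: the THO subunit genes THOC1, THOC2, THOC3, THOC5, THOC6 and THOC7, the adaptor gene ALYREF, the helicase genes DDX39A and DDX39B, and the export receptor gene NXF1. All 10 passed the filter on low counts.

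Per the labels, the Scramble libraries came from cells of genotype WT given a scramble shRNA. The DIS3-sh1 libraries came from cells labelled as a DIS3 knockdown and given the shRNA DIS3-sh1. Each group had 3 libraries, made from total RNA after ribosomal RNA depletion. The labels also name 3 samples of a second shRNA, DIS3-sh2, which is not analysed here because no column name matched those samples. Every result below therefore rests on 1 shRNA sequence. How the shRNA was delivered, for how long, and whether cells were cloned are not given here. The design text calls the replicates biological, but the labels do not say what separated them. If they share a culture, the p-values measure only the spread between these libraries. Below, the error of a mean CPM, share or ratio is the SD over the 3 libraries of a group, and the error of a log2 fold change (DIS3-sh1 over Scramble) is its SE.

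In the nucleus, THO assembles on RNA while RNA polymerase II is still transcribing. It recruits a DEAD-box helicase, DDX39B or its paralog DDX39A, and the helicase loads the adaptor ALYREF onto the RNA. ALYREF then passes the RNA to NXF1, which works with the small protein NXT1 and carries the particle through the nuclear pore. DIS3 is a catalytic ribonuclease of the RNA exosome. The exosome degrades nuclear RNAs that are not exported, among them short transcripts that start upstream of promoters.

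Scramble libraries totalled 20722775 to 23532148 counts and DIS3-sh1 libraries 19800892 to 21100677, so 1 CPM (a count scaled to library size) stands for about 20 to 24 counts. The targeted gene, DIS3, measured 176, 186 and 177 CPM in Scramble and 26.6, 27.8 and 27.9 CPM in DIS3-sh1. Small structural RNAs took 5.07% to 5.28% of Scramble counts and 8.43% to 9.60% of DIS3-sh1 counts. Mitochondrial transcripts took 2.20% to 2.23% and 2.78% to 3.47%. DIS3-sh1 replicate 1 differed most from its fellow replicates, with a chi-square per degree of freedom of 7.17 and 7.27 against them, beside 1.67 to 2.12 for the other pairs of replicates. Of 8 genes that 293T cells are known to express, 7 were at 1 CPM or more in every library, and NEFH, a neurofilament gene, was near 0. Their summed level was 2443 to 2462 CPM in Scramble and 2371 to 2393 CPM in DIS3-sh1. Most of that sum was VIM and IGF2BP1, at 1212 to 1228 and 840 to 850 CPM in Scramble, and single genes moved. KRT8, a keratin gene of the list, rose from 4.46 to 4.89 CPM to 31.8 to 33.4 CPM. LIN28B fell from 165 to 175 CPM to 100 to 104 CPM (log2 fold change -0.75 ± 0.04). NEFL (-0.25), IGF2BP1 (-0.18) and NEFM (-0.14) fell less, and KRT18 (0.28) and VIM (0.09) rose. The summed level of 5 lymphocyte and myeloid genes was 1.31 to 1.37 CPM in Scramble and 0.518 to 0.952 CPM in DIS3-sh1, with the T-cell gene CD3E at 0 throughout. That of 4 hepatocyte genes was 0.0477 to 0.147 and 0.330 to 0.381 CPM, with SERPINA1 at 0. That of 5 fibroblast genes was 14.6 to 15.8 and 24.2 to 28.4 CPM, with the collagen gene COL1A2 at 0 and nearly all of the sum from COL1A1, at 14.3 to 15.2 CPM in Scramble and 23.4 to 27.5 CPM in DIS3-sh1. The part of these shifts in the results below was not tested.

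Transcripts of 9 of the 10 genes fell in DIS3-sh1 and that of THOC5 rose. The falls ran from a log2 fold change of -1.19 for DDX39A to -0.10 for THOC2, and the median over the 10 was -0.41. For each gene, all 3 DIS3-sh1 libraries lay on the same side of all 3 Scramble libraries. Genes were called higher or lower where the adjusted p of edgeR's quasi-likelihood test, with Benjamini-Hochberg adjustment over 19591 genes, was under 0.05, and every adjusted p below for a single gene comes from that test. Such calls were common. Of all tested genes 67.0% were called, 32.6% lower and 34.5% higher, and the median log2 fold change was 0.02. Groups did not overlap for 69.8% of tested genes, with DIS3-sh1 lower for 34.2% and higher for 35.6%. Among the 10145 coding genes averaging 10 CPM or more, a set nearer to the members in level, 79.9% were called, 47.0% lower and 32.9% higher, with a median of -0.09. In that set 81.0% did not overlap, with DIS3-sh1 lower for 47.6% and higher for 33.4%. A change by itself is therefore no mark of these 10 genes. In that set, the share of genes with a lower log2 fold change was 31.05% for DDX39B, 36.2% for THOC7, 42.2% for THOC3 and 74.1% for THOC5. It was 14.1% for ALYREF and 17.0% for THOC6, and the share for each other member is given below. In bulk RNA, fewer cells that express a gene and less of its RNA per cell cannot be told apart.

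**Figure D1:**
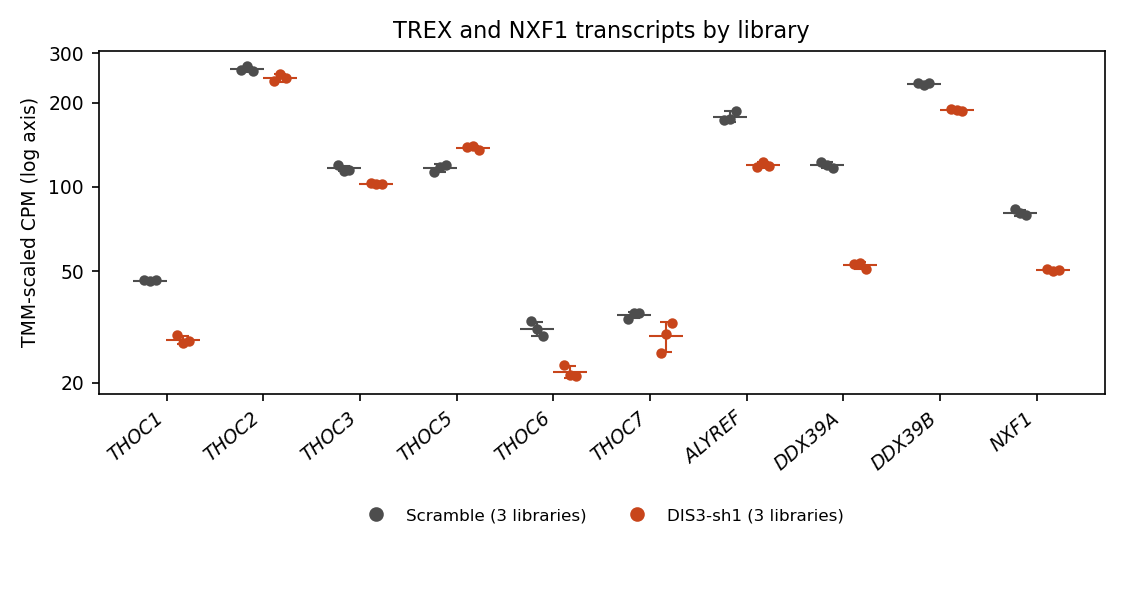
TMM-scaled CPM (log axis) of the 10 transcripts in 3 Scramble (grey) and 3 DIS3-sh1 (orange) libraries. Points are libraries, horizontal lines are means and error bars are SDs. DDX39A shows the widest gap, 117 to 123 CPM against 50.9 to 53.4 CPM, and THOC5 is the transcript with higher DIS3-sh1 values.

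**Figure D2:**
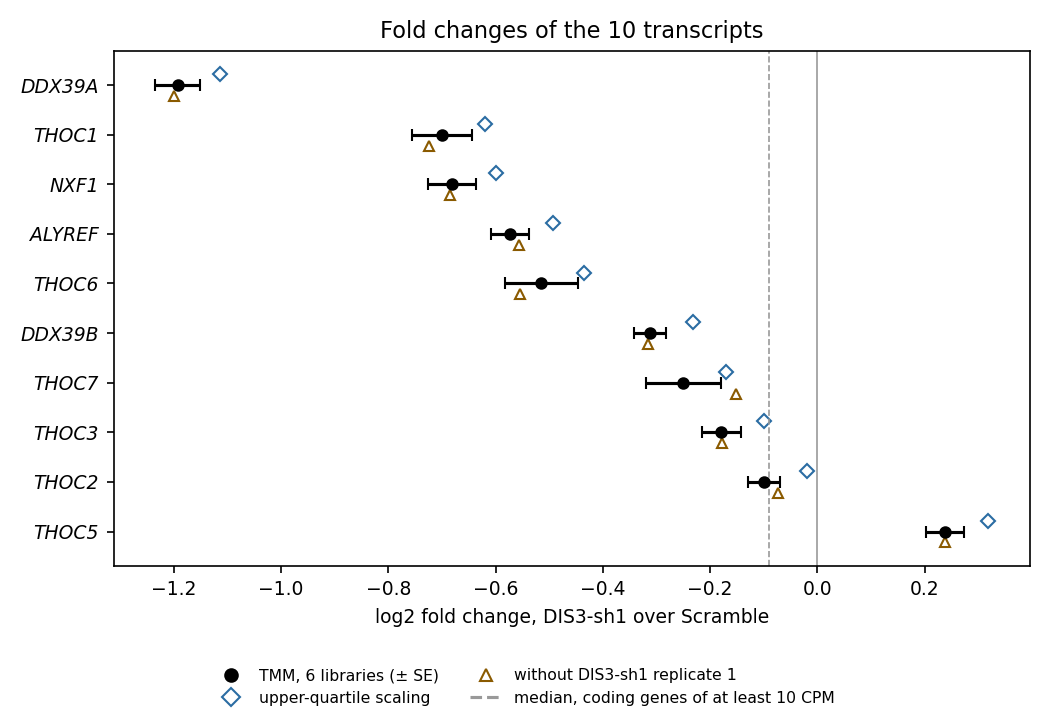
Log2 fold change of DIS3-sh1 over Scramble for each gene with TMM scaling and all 6 libraries (black, ± SE), with upper-quartile scaling (diamonds) and without DIS3-sh1 replicate 1 (triangles). The dashed line is the median of well expressed coding genes under TMM scaling, -0.09. THOC2 sits at that line. Upper-quartile scaling moves it to -0.02, and moves all log2 fold changes by a median of 0.08.

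THO subunits did not move alike. THOC1, an organising subunit that is also known as a nuclear matrix protein, fell most. It measured 46.4, 46.0 and 46.5 CPM in Scramble and 29.6, 27.7 and 28.2 CPM in DIS3-sh1. No DIS3-sh1 library reached the level of a Scramble library. From 46.3 ± 0.228 CPM the mean went to 28.5 ± 0.955 CPM, and the log2 fold change was -0.70 ± 0.06 (adjusted p = 1.57e-12). THOC1 (ENSG00000079134.13) spans 214520 to 268050 of chromosome 18, minus strand, in hg38, the build of all gene positions below. In the coding genes of at least 10 CPM, 8.68% had a lower log2 fold change.

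A non-coding transcript at the same promoter went the other way. THOC1-DT runs away from THOC1 on the plus strand, chromosome 18, 268148 to 270278, and its annotated start is 98 bases from that of THOC1. It had 27, 31 and 27 counts in Scramble and 52, 42 and 41 counts in DIS3-sh1. Its level averaged 1.32 ± 0.157 CPM against 2.16 ± 0.242 CPM, and the log2 fold change was 0.72 ± 0.23 (adjusted p = 0.00787). All 3 DIS3-sh1 libraries were higher than the Scramble libraries, but the gene has few counts, and it was singled out among the genes beside members after its values were seen. With so little depth its change is known far less precisely than that of THOC1, where the SE is about 0.06.

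The promoter window between them is printed because the transcripts on its 2 sides moved in opposite directions. Windows run from 250 bases before to 50 bases after the RefSeq start (GRCh38.p14), read 5′ to 3′ on the gene's strand. They were found for 9 of the 10 members, THOC7 having no entry. Where a gene has more than 1 window, the first listed was used. Capitals mark exact matches, on either strand, to 7 motifs: the CCAAT box (CCAAT), the ETS motif (CCGGAAG), the GC box (GGGCGG), the E-box (CACGTG), the cyclic AMP response element (TGACGTCA), the TATA box (TATAAA) and the core of the heat shock element (GAANNTTC). No motif contains another, though matches may share bases. The THOC1 window, chr18:267998-268297 on the minus strand, holds the annotated start of THOC1-DT.
THOC1: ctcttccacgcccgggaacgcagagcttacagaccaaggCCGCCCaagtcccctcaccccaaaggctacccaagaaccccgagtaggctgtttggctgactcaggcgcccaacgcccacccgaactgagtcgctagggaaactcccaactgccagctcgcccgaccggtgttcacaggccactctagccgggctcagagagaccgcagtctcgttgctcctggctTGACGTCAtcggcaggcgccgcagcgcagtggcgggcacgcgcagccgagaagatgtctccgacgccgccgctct
It has a match to TGACGTCA beginning 25 bases before the THOC1 start, a motif present in 1.85% of all 35116 windows. A GC box match begins 211 bases before the start, and GC boxes are present in 45.0% of windows. These matches describe letters and not binding.

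THOC2, the large scaffold subunit of THO, barely moved. It measured 261, 269.6 and 259 CPM in Scramble and 238, 254 and 245 CPM in DIS3-sh1. The groups did not overlap, but they lay close. The log2 fold change was -0.10 ± 0.03 (adjusted p = 0.00417). It was no longer called under upper-quartile scaling (-0.02, adjusted p = 0.58), under a filter of at least 5 CPM in 3 libraries (-0.05, adjusted p = 0.112) or under scaling by total counts (-0.07, adjusted p = 0.0594). The fold change of THOC2 stayed below 0 in log2 units in all 16 alternatives. The last setting was added after the data were seen. In the coding genes of at least 10 CPM, 49.2% had a lower log2 fold change than THOC2, which places it in their middle. THOC2 (ENSG00000125676.20) spans chromosome X, 123600561 to 123733056, on the minus strand.

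THOC3, a subunit with a propeller of WD repeats, fell slightly. Scramble libraries held 119.6, 114 and 115 CPM and DIS3-sh1 libraries 103, 102 and 103 CPM, with a log2 fold change of -0.18 ± 0.04 (adjusted p = 7.09e-05). Upper-quartile scaling brought it to -0.10 (adjusted p = 0.0171). Values in DIS3-sh1 were tight, and all of them lay below the lowest Scramble library. The gene (ENSG00000051596.10, chromosome 5, 175917873 to 176034680, minus strand) has a partial copy on the same chromosome, the transcribed pseudogene ENSG00000170089 at 177809407 to 177950732. Of the distinct stretches of 50 bases in THOC3 transcripts, 53.3% also occur in transcripts of that copy. The copy measured 8.14, 8.94 and 8.61 CPM in Scramble and 6.92, 7.26 and 7.04 CPM in DIS3-sh1. Its log2 fold change was -0.27 ± 0.11, a call (adjusted p = 0.027) that was lost in 8 of the 16 alternative settings. How reads were split between THOC3 and the copy was not given, so the level of THOC3 is uncertain.

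THOC5, a subunit that pairs with THOC7, was the member that rose. Levels were 113, 118 and 120.0 CPM in Scramble and 139, 139 and 136 CPM in DIS3-sh1. Every DIS3-sh1 library exceeded every Scramble library, the means being 117 ± 3.61 and 138 ± 1.86 CPM. The log2 fold change was 0.24 ± 0.04 (adjusted p = 5.94e-07). The rise held in all 16 alternatives, between 0.21 and 0.32. THOC5 (ENSG00000100296.14) occupies 29505879 to 29555216 of chromosome 22, minus strand. NIPSNAP1, which encodes a mitochondrial protein, lies just upstream on the same strand (29554808 to 29581337), so its annotated end overlaps the annotated start of THOC5. NIPSNAP1 rose more, from 81.9, 82.2 and 80.2 CPM to 134, 128 and 129 CPM, a log2 fold change of 0.68 ± 0.04 (adjusted p = 1.86e-16). Of the stretches of 50 bases in THOC5 transcripts, 1.32% also occur in NIPSNAP1 transcripts. The part of NIPSNAP1 in the values of THOC5 was not tested.

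The THOC5 window, chr22:29553708-29554007 on the minus strand, is shown as that of the transcript that went against the others. It is the first of 2 windows listed for THOC5. The window lies inside the gene, downstream of the GENCODE start (29555216) and outside the overlap with NIPSNAP1.
THOC5: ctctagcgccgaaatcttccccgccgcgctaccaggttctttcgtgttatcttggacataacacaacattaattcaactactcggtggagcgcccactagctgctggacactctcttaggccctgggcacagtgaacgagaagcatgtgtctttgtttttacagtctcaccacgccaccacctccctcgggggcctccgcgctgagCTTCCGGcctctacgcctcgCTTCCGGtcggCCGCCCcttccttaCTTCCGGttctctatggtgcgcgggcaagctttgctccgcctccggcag
It holds 3 ETS matches, all on the reverse strand, beginning 44 and 24 bases before the RefSeq start and 1 base after it. A reverse GC box match begins 13 bases before that start. An ETS match is present in 10.3% of all windows and in 4 of the 9 members' windows (THOC3, THOC5, ALYREF and DDX39B). At least 3 such matches are present in 0.279% of windows, a count made after the THOC5 window was seen. The other 3 members with an ETS match, THOC3, ALYREF and DDX39B, fell, as did every member whose window has none. The part of these matches in any change was not tested.

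THOC6, a WD-repeat subunit of metazoan THO, fell. It measured 33.1, 31.0 and 29.4 CPM in Scramble and 23.1, 21.2 and 21.1 CPM in DIS3-sh1, a log2 fold change of -0.51 ± 0.07 (adjusted p = 6.8e-08). Every DIS3-sh1 library was below every Scramble library. The gene (ENSG00000131652.14, chromosome 16, 3024027 to 3027755, plus strand) overlaps HCFC1R1 and BICDL2 on the other strand, and 9.88% of its stretches of 50 bases also occur, on either strand, in HCFC1R1 transcripts. HCFC1R1 measured 10.8 ± 0.828 CPM in Scramble against 12.7 ± 0.807 in DIS3-sh1. Its small rise lost its call in 4 of the 16 alternatives, as did that of BICDL2.

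THOC7, the coiled-coil partner of THOC5, fell by an amount that depended on which DIS3-sh1 libraries were kept. Scramble libraries were at 33.9, 35.4 and 35.5 CPM and DIS3-sh1 libraries at 25.5, 30.0 and 32.7 CPM. The groups did not overlap, but the highest DIS3-sh1 library lay just under the lowest Scramble library. The log2 fold change was -0.25 ± 0.07 (adjusted p = 0.00215). Without DIS3-sh1 replicate 1, the lowest of the 6 for THOC7 and the replicate that differed most from its group, it was -0.15 (adjusted p = 0.0337). Without DIS3-sh1 replicate 3, the highest of its group for THOC7, it was -0.33 (adjusted p = 0.000238). THOC7 (ENSG00000163634.12) is found at 63833870 to 63863903 of chromosome 3, minus strand. ATXN7, which encodes an ataxin of the SAGA complex and starts 654 bases away on the other strand, fell too (log2 fold change -0.32 ± 0.05), with 56.1 ± 1.27 CPM in Scramble against 45.1 ± 1.89 in DIS3-sh1.

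Levels of the THO subunits can be compared only per length, and this was done with CPM per kilobase (kb) of annotated exon (GENCODE 29, all exons of a gene merged). In Scramble, THOC3 had the highest of these levels among THO subunits (33.7 ± 0.803 CPM per kb, a value made uncertain by its copy) and THOC1 the lowest (5.71 ± 0.0282 CPM per kb). THOC2 (25.6), THOC7 (19.6), THOC6 (16.8) and THOC5 (14.9 CPM per kb) lay between, in that order and with no overlap of libraries between neighbours. In DIS3-sh1, THOC5 reached 17.5 CPM per kb, above THOC6 (11.7 CPM per kb) in every library. It overlapped with THOC7 (14.3, 16.8 and 18.3 CPM per kb), so these 2 were not ordered. Merged exons include rare isoforms, which lowers the value of genes such as THOC1 (8102 bases of exon) relative to short genes such as THOC7 (1784 bases).

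As a share of the summed per-length level of the 6 THO subunits, a quantity that no scaling between libraries can move, THOC5 went from 12.3%, 12.9% and 13.2% in Scramble to 17.4%, 17.1% and 16.6% in DIS3-sh1. THOC6 went from 15.2%, 14.3% and 13.7% to 12.3%, 11% and 10.9%. THOC1 took 4.92% ± 0.0542 in Scramble and 3.42% ± 0.169 in DIS3-sh1, and THOC2 took 22.0% ± 0.42 and 23.2% ± 0.511. For these 4 subunits the groups did not overlap. THOC3 differed by less than its spread, with 29% ± 0.607 and 28.9% ± 0.555. For THOC7 the DIS3-sh1 libraries (14.2%, 16.2% and 17.6%) enclosed those of Scramble (16.3%, 17.0% and 17.3%). No test was made on these shares, since they are made from the members themselves, and all of them depend on the uncertain level of THOC3.

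**Figure D3:**
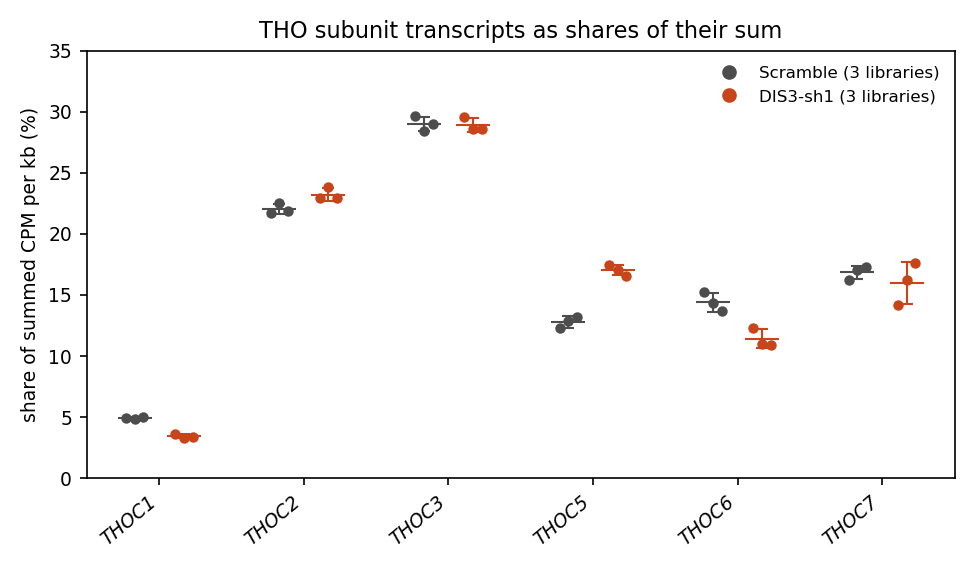
Share (%) of each THO subunit transcript in the summed CPM per kb of the 6 subunits, by library, with mean and SD (n = 3 per group; Scramble grey, DIS3-sh1 orange). THOC5 averaged 12.8% in Scramble and 17.0% in DIS3-sh1, while THOC6 went from 14.4% to 11.4% and THOC1 from 4.92% to 3.42%.

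Among the helicases, DDX39A fell far more than DDX39B. Both are DEAD-box ATPases that load export adaptors, and DDX39B, also called UAP56, additionally acts in spliceosome assembly. DDX39A measured 123, 120.3 and 117 CPM in Scramble and 53.2, 53.4 and 50.9 CPM in DIS3-sh1. The groups lay far apart and each was tight. From 120.0 ± 2.88 CPM the mean went to 52.5 ± 1.38 CPM, and the log2 fold change was -1.19 ± 0.04 (adjusted p = 1.64e-21), which leaves 43.7% of the Scramble level. Of the 10145 coding genes of at least 10 CPM, 0.986% had a lower log2 fold change. DDX39A (ENSG00000123136.15) covers 14408819 to 14419383 of chromosome 19, minus strand, and GENCODE 29 lists no gene that overlaps it.

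DDX39B measured 236, 231 and 234 CPM in Scramble and 190.1, 188 and 186 CPM in DIS3-sh1. Values within each group were close, and the groups did not overlap. The log2 fold change was -0.31 ± 0.03 (adjusted p = 4.96e-11), or 80.5% of the Scramble level. DDX39B (ENSG00000198563.14) covers 31530219 to 31542448 of chromosome 6, minus strand, within the longer readthrough gene ATP6V1G2-DDX39B (31530219 to 31546608). The readthrough gene had 3864, 3369 and 3408 counts in Scramble and 2495, 2341 and 2457 in DIS3-sh1. All 3 DIS3-sh1 libraries were lower, and the log2 fold change was -0.49 ± 0.03 (adjusted p = 3.34e-14). Reads in shared exons were split between them by the authors' counting in a way not given in the sources used here. With the counts of both genes added together, a setting chosen after the data were seen, the log2 fold change of DDX39B was -0.38 (adjusted p = 2.36e-14). The snoRNAs SNORD84 and SNORD117, which lie within the DDX39B gene on its strand, had at most 25 counts in a library, and SNORD117 was not called (adjusted p = 0.272).

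The ratio of DDX39A to DDX39B counts within a library does not depend on scaling between libraries. It was 0.521, 0.520 and 0.50 in Scramble and 0.28, 0.284 and 0.273 in DIS3-sh1, so the groups lay far apart. The mean log2 ratio was lower by a difference of -0.88 in DIS3-sh1 (exact permutation test over samples, two-sided, p = 0.1, the smallest p that 3 against 3 allows). With the readthrough counts added to DDX39B, the ratios were 0.305, 0.307 and 0.292 in Scramble and 0.173, 0.175 and 0.168 in DIS3-sh1, a log2 difference of -0.81. Per kb of exon, DDX39A (31.3 ± 0.75) and DDX39B (33.4 ± 0.326) were close in Scramble but did not overlap, and in DIS3-sh1 they were 13.7 ± 0.359 and 26.9 ± 0.268 CPM per kb. These levels rest on merged exons of 3840 bases for DDX39A and 7007 for DDX39B. They also leave out the readthrough gene, at 165 ± 3.46 CPM in Scramble and 117 ± 0.367 in DIS3-sh1. How the paralogs compare in level is therefore uncertain. The summed CPM of the pair, again without the readthrough gene, was 351 to 358 in Scramble and 237 to 243 in DIS3-sh1.

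**Figure D4:**
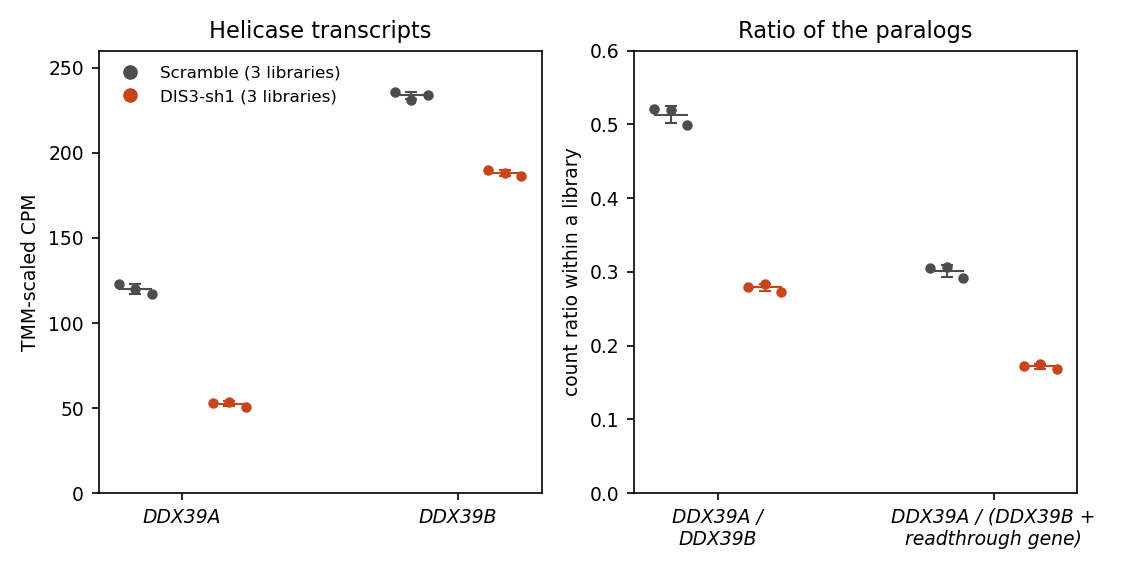
Left, TMM-scaled CPM of DDX39A and DDX39B in 3 Scramble (grey) and 3 DIS3-sh1 (orange) libraries with mean and SD. Right, the ratio of their counts within each library, alone and with the readthrough gene added to DDX39B: 0.50 to 0.521 in Scramble against 0.273 to 0.284 in DIS3-sh1 for the ratio alone.

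The paralogs are similar enough that shared reads had to be considered. Their longest annotated coding sequences (1281 bases in DDX39A and 1284 in DDX39B, GENCODE 29) were identical at 80.0% of 1281 aligned bases. The longest stretch without a difference is 26 bases, coding bases 379 to 404 of DDX39A and 382 to 407 of DDX39B, and it is printed to show how short the shared stretches are.
DDX39A and DDX39B, shared: cagatcagcaaggaatatgagcgctt
No stretch of 50 bases in DDX39A transcripts was found in a transcript of any other gene, DDX39B included. For DDX39B, 26.3% of the stretches were shared with the readthrough gene.

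Their promoter windows are printed as those of paralogous members that differed in the size of their fall, chr19:14419334-14419633 for DDX39A and chr6:31541954-31542253 for DDX39B, both on the minus strand.
DDX39A: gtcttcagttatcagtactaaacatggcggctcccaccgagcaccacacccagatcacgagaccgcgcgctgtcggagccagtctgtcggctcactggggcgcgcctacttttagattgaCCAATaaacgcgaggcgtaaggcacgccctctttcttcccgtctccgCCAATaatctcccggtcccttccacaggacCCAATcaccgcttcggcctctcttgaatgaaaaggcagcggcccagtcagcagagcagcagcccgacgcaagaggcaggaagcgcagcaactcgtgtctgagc
DDX39B: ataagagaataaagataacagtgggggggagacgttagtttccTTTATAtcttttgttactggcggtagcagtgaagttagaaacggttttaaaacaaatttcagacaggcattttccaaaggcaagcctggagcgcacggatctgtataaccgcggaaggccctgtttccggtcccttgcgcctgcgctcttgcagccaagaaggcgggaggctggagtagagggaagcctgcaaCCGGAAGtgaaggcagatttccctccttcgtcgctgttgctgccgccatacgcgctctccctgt
The DDX39A window holds 3 CCAAT matches on the forward strand, beginning 130, 83 and 53 bases before the start, and no match to the other 6 motifs. CCAAT is present in 34.6% of all windows, and at least 3 matches are present in 3.26%, a count made after the window was seen. DDX39B has no CCAAT match; it has an ETS match 14 bases before the start and a reverse TATA box match 207 bases before it. TATA box letters are present in 11.5% of windows. Of the other members, THOC6 and ALYREF have a CCAAT match each. Both fell, as did every member whose window has none, except THOC5. The part of these matches in any change was not tested. No member's window holds an E-box or heat shock element match (7.26% and 6.77% of all windows).

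ALYREF, the adaptor that binds both the helicase and NXF1, fell. It measured 173, 175 and 187 CPM in Scramble and 118, 123 and 119 CPM in DIS3-sh1. The groups did not overlap. Their means were 178 ± 7.6 and 119.9 ± 2.99 CPM, and the log2 fold change was -0.57 ± 0.04 (adjusted p = 3.46e-15). Per length, ALYREF was the highest member in every library, at 113 ± 4.83 CPM per kb in Scramble and 76.2 ± 1.9 in DIS3-sh1. It also has the fewest bases of merged exon among the members (1574), and merged exons lower the value of genes with more. Its gene (ENSG00000183684.8, chromosome 17, 81887844 to 81891586, minus strand) overlaps the start of ANAPC11, a gene of the anaphase-promoting complex on the other strand. ANAPC11 measured 38.0 ± 1.37 and 42.4 ± 2.31 CPM, and its rise lost its call in 4 of the 16 alternatives.

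NXF1, the receptor that carries most mRNAs through the pore, fell by about as much as THOC1. Scramble libraries held 83.1, 80.5 and 79.2 CPM and DIS3-sh1 libraries 51.0, 49.9 and 50.5 CPM. The 3 DIS3-sh1 values were close together and far below Scramble, with a log2 fold change of -0.68 ± 0.04 (adjusted p = 1.34e-14). In the coding genes of at least 10 CPM, 9.28% had a lower log2 fold change. NXF1 (ENSG00000162231.14) extends over 62792123 to 62806302 of chromosome 11, minus strand. The gene is known to make an isoform with a retained intron, and the values here sum all isoforms. Its window has a forward TATA box match beginning 30 bases before the start and 4 GC box matches.

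NXF1 works as a heterodimer with NXT1, and both NXT genes fell. NXT1 averaged 18.8 ± 0.76 CPM in Scramble against 13.8 ± 0.87 in DIS3-sh1, and its log2 fold change was -0.45 ± 0.08 (adjusted p = 1.35e-05). Its paralog NXT2 measured 22.8, 23.8 and 24.2 CPM in Scramble and 7.63, 9.28 and 10.1 CPM in DIS3-sh1. Its log2 fold change was -1.39 ± 0.09 (adjusted p = 1e-14), the largest fall among the members and the 58 other export genes tested. NXT1 and NXT2 were singled out after their values were seen. The NXF1 relatives NXF2 and NXF3 were at most 0.0978 CPM in any library and were not tested.

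Of 61 other genes of the export route, arranged in 7 lists, 58 were tested, and 49 fell, 4 rose and 5 were not called. Beside these counts and those of each list below, 47.0% of coding genes of at least 10 CPM were called lower and 32.9% higher, and 32.6% and 34.5% of all tested genes. The median log2 fold change over the 58 was -0.46, beside -0.09 for those coding genes. Of 11 tested adaptors and partners of TREX, 8 fell and 0 rose (median -0.28). ERH, a small partner of several RNA-processing factors, fell (-0.70 ± 0.04), with 137 ± 7.63 CPM in Scramble against 84.3 ± 2.67 in DIS3-sh1. CPSF6, a cleavage factor subunit that binds NXF1 (-0.59 ± 0.03), and CHTOP, a TREX adaptor that stimulates the helicase (-0.54 ± 0.03), also fell. The 3 that were not called were the TREX-linked zinc finger gene ZC3H11A (-0.01 ± 0.04), RBM15B (-0.03 ± 0.04) and FYTTD1, which encodes the adaptor UIF (0.02 ± 0.05), all named after their values were seen.

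**Figure D5:**
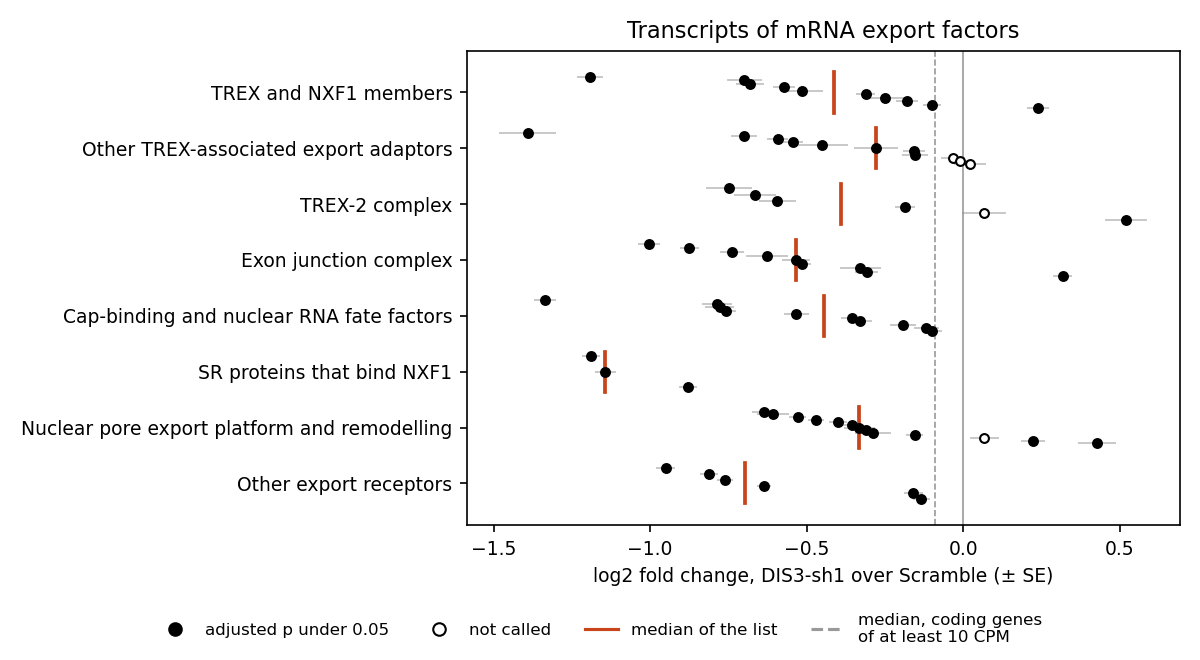
Log2 fold change (± SE) of DIS3-sh1 over Scramble for every tested gene of each list, filled where the adjusted p was under 0.05 and open where it was not, with the list's median (orange) and the median of well expressed coding genes (dashed, -0.09). Genes called higher are THOC5, PCID2, CASC3, GLE1 and DDX19B.

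TREX-2, which tethers active genes to the nuclear pore, was mixed. Of its 6 genes, 4 fell, 1 rose and 1 was not called (median -0.39). ENY2 (-0.75 ± 0.07), CETN2 (-0.66 ± 0.07) and SEM1 (-0.59 ± 0.06) fell. These proteins also belong to other complexes, ENY2 to SAGA, CETN2 to the centrosome and SEM1 to the proteasome. PCID2, a subunit that binds the scaffold protein GANP, rose. It had 21.7 ± 1.17 CPM in Scramble against 31.1 ± 1.73 in DIS3-sh1, and its log2 fold change was 0.52 ± 0.07 (adjusted p = 5.49e-08). CETN3, a centrin gene named after its value was seen, was not called (0.07 ± 0.07, adjusted p = 0.418).

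Exon junction complex genes, whose products mark spliced mRNA and help recruit TREX, fell in 8 of 9 cases (median -0.53). EIF4A3, the RNA-clamping helicase of the complex, had 191 ± 6.24 CPM in Scramble against 95.1 ± 2.9 in DIS3-sh1, leaving 49.9% of the Scramble level (adjusted p = 2.92e-21). RNPS1 (-0.88 ± 0.03) and PNN (-0.74 ± 0.04), which encode peripheral splicing-related subunits, fell too. CASC3, another core factor, rose (0.32 ± 0.03), with 190.1 ± 4.98 CPM in Scramble against 237 ± 5.61 in DIS3-sh1.

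The cap-binding and nuclear RNA fate list fell in 10 of 10 cases (median -0.44). Only 8 were called lower under upper-quartile scaling, under the filter of at least 5 CPM in 3 libraries and under scaling by total counts. SRRT, which encodes ARS2, the protein that directs capped RNA to export or decay, had the largest fall (-1.34 ± 0.03), followed by PHAX, the export adaptor of small nuclear RNAs (-0.79 ± 0.05), NCBP2 (-0.78) and NCBP1, the large cap-binding subunit that contacts ALYREF (-0.76 ± 0.03). All 3 SR proteins that bind NXF1 fell: SRSF1 (-1.19 ± 0.03), SRSF7 (-1.14 ± 0.03) and SRSF3 (-0.88 ± 0.03).

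At the nuclear pore, 10 of 13 genes of the export platform and of particle remodelling fell, 2 rose and 1 was not called (median -0.33). NUP88, a cytoplasmic-face nucleoporin (-0.63 ± 0.04), NUP153, a basket nucleoporin (-0.53 ± 0.03), and RANBP2, the cytoplasmic filament protein (-0.47 ± 0.03), fell. The helicase gene DDX19B rose (0.43 ± 0.06, adjusted p = 2.96e-07), with 26.7 ± 1.32 CPM in Scramble against 35.9 ± 0.139 in DIS3-sh1. GLE1, which encodes its activator, rose as well (0.22 ± 0.04, adjusted p = 5.85e-06), with 94.9 ± 2.53 and 111 ± 2.46 CPM. Their products act together to strip export factors from mRNA on the cytoplasmic face. DDX19A, the near-identical paralog of DDX19B, fell (-0.33 ± 0.05), with 57.3 ± 2.19 CPM in Scramble against 45.6 ± 1.87 in DIS3-sh1. Reads may be split between them, so the opposite changes of DDX19A and DDX19B are uncertain. SENP2, which encodes a SUMO protease of the basket and was also named after its value was seen, was not called (0.07 ± 0.05). Among other export receptors and their Ran cofactors, 6 of 6 tested genes fell (median -0.70), with RANBP1 (-0.95 ± 0.03), the Ran exchange factor gene RCC1 (-0.81 ± 0.03) and the exportin gene XPO1 (-0.76 ± 0.03) falling most.

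Genes on or beside the members, 9 of which were tested, showed no common direction. In GENCODE 29, 21 genes overlap a member or start on the other strand within 1000 bases of its start, and 20 have a row in the table. Of the 9 tested, 5 rose (THOC1-DT, NIPSNAP1, HCFC1R1, BICDL2 and ANAPC11), 3 fell and 1 was not called, beside 34.5% higher and 32.6% lower over all tested genes. The 3 that fell were ATP6V1G2-DDX39B, ATXN7 and USP14, a deubiquitinase gene whose end meets that of THOC1 on the other strand (-0.79 ± 0.04, with 136 ± 8.84 and 78.8 ± 1.58 CPM). Antisense genes at DDX39B (DDX39B-AS1, at most 3 counts) and at THOC3 and THOC7 (0 counts in all 6 libraries) were too low to test. Of the 4 members beside a gene that rose, THOC1, THOC6 and ALYREF fell and THOC5 rose. The part of these neighbours in the members' values was not tested.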

How the data were processed

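The authors deposited a table of expected counts, estimates of the reads of each gene that can be fractional. The submitters' processing notes list Bowtie2 (2.3.5), HISAT2 (2.1.0), SAMtools, featureCounts (1.5.1) and the build hg38. Settings, annotation version and use of strand are not given in the sources used here, so reads of a gene and of its antisense partner may be mixed. Of the values above 0, 53.5% to 56.3% were whole. Of 9 columns of per-sample values, 6 matched the labels. The other 3 were used in no step, and results planned for DIS3-sh2 were not computed.

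Rounded counts of the 6 libraries were fitted on group alone with edgeR 4.0.16 (R 4.3.3), after its TMM scaling and expression filter. Its robust quasi-likelihood test was two-sided, with Benjamini-Hochberg adjustment over 19591 genes and a threshold of 0.05. SEs were derived from the fold change and F. Symbols were found for 61757 genes. Coordinates and exon lengths came from GENCODE 29 (GRCh38), and promoter windows from RefSeq (GRCh38.p14). The fit was also run on simulated data in which far fewer genes changed than were called here, so that run cannot show how it behaves with changes this broad. The 16 alternatives included DESeq2 1.42.0 and limma-voom (limma 3.58.1), and 2 of them were added after the data were seen. Members, lists and tests were chosen with earlier results of these data known. Named genes were DIS3, the members and, from each list, the 3 with the smallest p and those called against its majority. NXT1, NXT2, ZC3H11A, RBM15B, FYTTD1, CETN3, SENP2, NCBP2, DDX19A, the copy of THOC3 and the named marker genes fall outside that rule and were chosen after their values were seen. Genes beside members were found by position, and those described were chosen after their values were seen.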

Additional observations from a re-analysis of the deposited data

How the results depend on the processing

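Under the 16 alternatives, between 8 and 9 members were called lower and 1 higher, and THOC2 was the member whose call was lost, in 3 of them. Of the 58 export genes tested, between 45 and 49 were lower and between 4 and 5 higher. Over all genes, leaving out 1 library at a time gave 6426 to 6567 higher and 6111 to 6269 lower, and over all 16 alternatives the counts ran from 5134 to 7745 higher and from 4988 to 6549 lower. Upper-quartile scaling gave 7745 higher and 5471 lower and moved all log2 fold changes by a median of 0.08, the furthest of any setting. The log2 difference in the ratio of DDX39A to DDX39B stayed between -0.90 and -0.81, but with 3 libraries a group its p cannot pass the threshold. Whether the replicate numbers pair the samples was not settled. Correlations between same-numbered libraries were near 0 (0.0374, 0.0138 and 0.0104), yet each library correlated best with its own number. Values were first centred on the mean of each group of 3, which makes such correlations balance around 0, so they cannot decide. With the replicate block, 6769 genes were higher and 6397 lower, against 6751 and 6379 without it, and no member's call changed. Alternatives planned for DIS3-sh2 were not run. Scaling by total counts and adding the readthrough counts to DDX39B were chosen after seeing the data.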
